A study of Mus musculus with 6 samples.

Results

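The genes described here are 59 mouse genes that act in mitosis: regulators of entry into M phase, the spindle assembly checkpoint, kinetochore and chromosomal passenger proteins, kinesins and other spindle proteins, and proteins of cytokinesis and chromosome structure. Members were chosen by symbol from a list of such genes, with no threshold on their values, and 59 of 59 were found among the 35027 genes of the expression table. They lie on 17 chromosomes.

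The libraries were prepared from tumor cells of 2 genotypes of mice, 3 of each, that had been sorted from dissociated thyroid tumors by the red reporter Kate and sequenced as bulk RNA. YAP mice, with the alleles RIK-rtTA and tetO-YAPS127A and a thyroid-specific Cre, express YAPS127A, a constitutively nuclear form of the Hippo pathway coactivator YAP, in thyroid follicular cells under doxycycline. BrafYAP mice carry the same alleles and in addition LSL-Braf, from which BrafV600E is expressed at the endogenous gene, so that the comparison asks what BrafV600E adds to tumors of YAPS127A mice. Both genotypes were fed doxycycline chow from 4 weeks of age per the labels, and about 20000 cells were sorted per library. The methods of the study also give 4 weeks for the start of doxycycline, while its results text gives 3 months. Kate marks the cells in which Cre has acted on the rtTA allele. The libraries are YAP replicates 1, 2 and 3 and BrafYAP replicates 1, 2 and 6, and values are given in that order. The labels give 3 pooled tumors for every YAP library and a single tumor (1) for every BrafYAP library, so in all differences below pooling and genotype cannot be told apart. The methods of the study instead describe a single tumor of a mouse for each replicate, and the labels were followed. The age of the mice at collection was not given in the sources used here.

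Libraries held an estimated 26.1 to 36.9 M reads on genes. Pax8, which encodes a thyroid lineage transcription factor, was present in every library at 75.9 to 220 TPM by exonic length, and the summed level of 6 epithelial markers was 7071 to 21835 in YAP and 8903 to 21952 in BrafYAP. Thyroglobulin (Tg), the defining product of differentiated follicular cells, ranged from 12.0 to 170 TPM in YAP, and was at 1.29, 0.532 and 196 TPM in BrafYAP replicates 1, 2 and 6. Across all genes, YAP replicate 1 and BrafYAP replicate 6 stood apart most often. Of 16829 genes, 15.5% were more than 2-fold lower in YAP replicate 1 than in both other YAP libraries, and 16.2% were that much lower, and 13.2% that much higher, in BrafYAP replicate 6 than in both other BrafYAP libraries. Results without these libraries are given below.

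Mitosis begins when Cdk1 bound to B-type cyclins is activated, after which chromosomes condense, the spindle forms, and kinetochores attach chromosomes to its microtubules. The spindle checkpoint holds back the anaphase-promoting complex (APC/C) until all kinetochores are attached, and the cell then divides at the midzone of the spindle. Many of these genes are transcribed late in the cell cycle through promoters with CHR and CCAAT elements, which the MuvB complex with B-Myb and Foxm1, and the factor NF-Y, are known to use, so their messenger RNA is scarce in cells that do not cycle.

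Promoters of this kind can be read in the reference genome. RefSeq promoters of 300 bases (250 before to 50 after the start, GRCm38.p6) were searched, and a gene counted if any promoter of it matched. Among 49 members with such a promoter, the CHR element TTTGAA was found on either strand in 35 (71.4%), against 20.2% of all 27025 genes with such a promoter. CCAAT was found on either strand in 35 members (71.4%, against 41.1%), and both elements in 29 (59.2%, against 8.97%). A CHR element within 50 bases of the start was present in 65.3% of members and in 5.72% of all genes with such a promoter. The E2F-type site was searched on both strands as TTCCCGC or TTGGCGC, or with the inner pair mixed, as TTCGCGC or as TTGCCGC. It was found in 9 members (18.4%, against 10.9%). Among the 11384 genes tested below that have a promoter, the shares were 14.8% for CHR, 42.6% for CCAAT, 7.23% for both, 3.90% for CHR near the start and 18.3% for the E2F-type site, so that the members' share of E2F-type sites was that of the genes tested. Kif20a, Incenp, Smc4, Foxm1, Aurkb, Cdc25c, Ccna2, Tpx2, Stmn1 and Spc24 were not matched to a promoter. The windows below, 100 bases before to 50 after the RefSeq start on the strand of the gene, show a member among those with the smallest p-values (Prc1), the member with the lowest fold change (Kif4), a pair of well-known M-phase genes (Plk1, Top2a), a member that was not lower in BrafYAP (Cdc20), and a member that was lower although it has neither element in the window (Birc5). Each holds the start of transcription and the first bases of exonic sequence, and capitals mark CHR and CCAAT matches on either strand.
Prc1 (chr7:80294351-80294500, plus strand, GRCm38.p6): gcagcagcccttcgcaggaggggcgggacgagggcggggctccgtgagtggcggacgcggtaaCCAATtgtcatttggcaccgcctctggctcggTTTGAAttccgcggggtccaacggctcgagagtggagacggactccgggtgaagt
Plk1 (chr7:122159335-122159484, plus strand, GRCm38.p6): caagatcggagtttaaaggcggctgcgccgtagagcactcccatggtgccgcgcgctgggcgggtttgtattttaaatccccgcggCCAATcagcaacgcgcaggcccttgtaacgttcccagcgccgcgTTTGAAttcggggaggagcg
Top2a (chr11:99024140-99024289, minus strand, GRCm38.p6): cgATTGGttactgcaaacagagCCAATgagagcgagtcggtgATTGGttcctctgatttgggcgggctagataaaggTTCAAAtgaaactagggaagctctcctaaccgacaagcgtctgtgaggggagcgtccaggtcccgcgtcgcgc
Kif4 (chrX:100625965-100626114, plus strand, GRCm38.p6): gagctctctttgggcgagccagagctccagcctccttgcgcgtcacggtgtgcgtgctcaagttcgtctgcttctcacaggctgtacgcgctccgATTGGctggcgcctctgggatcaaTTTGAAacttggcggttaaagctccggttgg
Cdc20 (chr4:118437294-118437443, minus strand, GRCm38.p6): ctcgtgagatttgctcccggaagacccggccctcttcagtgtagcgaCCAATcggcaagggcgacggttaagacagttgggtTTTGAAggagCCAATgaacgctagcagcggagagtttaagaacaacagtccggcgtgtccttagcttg
Birc5 (chr11:117849137-117849286, plus strand, GRCm38.p6): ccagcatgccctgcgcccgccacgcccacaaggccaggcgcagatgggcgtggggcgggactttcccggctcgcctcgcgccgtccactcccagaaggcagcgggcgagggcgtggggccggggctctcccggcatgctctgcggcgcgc

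Members with and without a CHR element had similar medians, a comparison that was not tested. The median log2 fold change (BrafYAP over YAP, defined below) was -1.77 over the 35 with the element, of which 34 were lower in BrafYAP, and -1.83 over the 14 without, of which 12 were lower. A match is a description of the letters and was not tested as a binding site.

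Nearly all mitosis genes were lower in BrafYAP than in YAP cells, and the differences were large. Of the 59 members, 55 had a lower fitted level in BrafYAP, where 55.6% of all 16829 genes tested did. The median log2 fold change of the members was -1.77 (3.42-fold lower), against -0.12 over all genes tested, with 45 members more than 2-fold lower and 23 more than 4-fold lower. Every BrafYAP library lay below every YAP library for 46 members, which holds for 17.1% of all genes, and 0 members showed the opposite order, which holds for 11.7%. Values are scaled reads, that is, the deposited TPM multiplied back by the gene length that had been used to divide them, and fold changes are on the scale of log2(scaled reads + 1).

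No single member passed the corrected test. Benjamini-Hochberg adjusted p-values of limma were under 0.05 for 0 of 59 members and for 0% of all genes, and the smallest among members was 0.0544. At an unadjusted p under 0.05 in limma, 44 members were lower in BrafYAP, beside 10.6% of all genes, and 0 were higher, beside 9.69%. With voom 0 members passed the adjusted test and 43 were lower at the unadjusted threshold, beside 9.98% of all genes. An exact permutation test of a single gene cannot go below 0.1 with 3 libraries against 3. These p-values measure the spread between the sorted samples. By the labels these are unlike units, pools of 3 tumors in YAP and single tumors in BrafYAP, and the fit takes their spread as equal. In bulk RNA a smaller share of dividing cells cannot be told apart from less of these RNAs per cell.

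**Figure D1:**
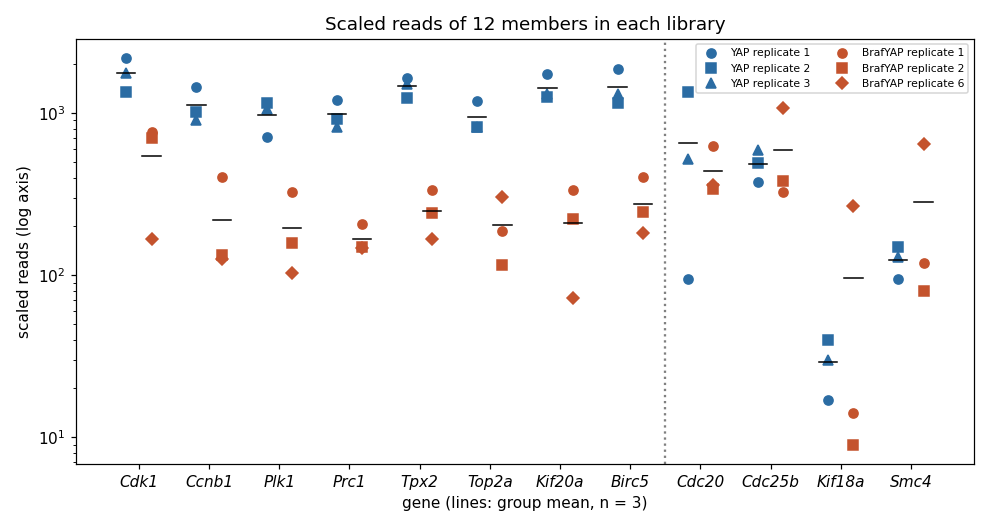
Scaled reads (log axis) of 12 members in each library, with YAP in blue and BrafYAP in orange, a marker shape for each replicate number and a line at each group mean (n = 3). For the 8 genes left of the dotted line the groups do not overlap, while the 4 genes on its right, with fitted fold changes above 0, overlap between the groups.

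Markers of macrophages were also lower in BrafYAP. All 10 macrophage markers had lower fitted levels, 9 of them with an unadjusted limma p under 0.05 (beside 10.6% of all genes). Their summed level was 15273 to 49270 TPM in YAP and 4285 to 15019 TPM in BrafYAP, with 0 of the 10 at 0 in any library. Most of each sum was Lyz2 (lysozyme), at 11029 to 38891 TPM in YAP and 3008 to 12011 TPM in BrafYAP, while C1qa, a complement gene of macrophages, was at 773 to 3047 and 148 to 461 TPM. The median deviation of the 59 members from their YAP mean was -0.05, 0.00 and 0.06 on the log2 scale in YAP and -1.28, -1.75 and -2.02 in BrafYAP. Genes of dissociation and stress moved the other way, with 10 of 12 higher in BrafYAP and a median log2 fold change of 1.79. Of the 12, 7 were higher at an unadjusted limma p under 0.05 (beside 9.69% of all genes) and 7 without overlap (beside 11.7%). Their sums were 4279 to 10579 TPM in YAP and 13076 to 21483 TPM in BrafYAP. Sums of T-cell markers (14.5 to 26.0 and 14.9 to 31.4 TPM), B-cell markers (0.564 to 5.33 and 0.249 to 4.73), endothelial markers (4.13 to 32.4 and 2.08 to 25.9), fibroblast markers (133 to 258 and 143 to 284) and erythroid markers (17.99 to 112 and 3.79 to 61.5) overlapped between the groups. By fitted level, however, 7 of 8 T-cell and 5 of 5 erythroid markers tested were lower in BrafYAP, 0 of them at an unadjusted limma p under 0.05. Of the endothelial, fibroblast and B-cell markers tested, 3 of 6, 3 of 7 and 0 of 1 were lower. The part of macrophages or of stress genes in the difference of the members was not tested.

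**Figure D2:**
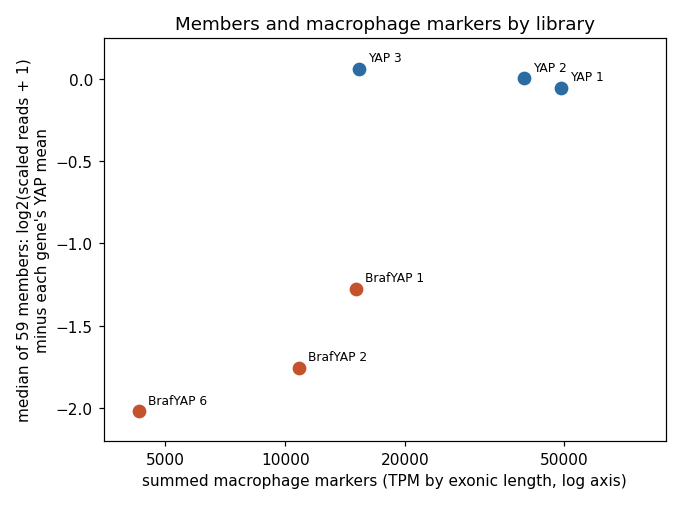
Summed level of 10 macrophage markers (TPM by exonic length, log axis) against the median deviation of the 59 members from their YAP mean (log2 scale), with 1 point per library. The YAP libraries lie at higher values on both axes than the BrafYAP libraries, with the lowest YAP sum at 15273 TPM and the highest BrafYAP sum at 15019 TPM, and most of each sum is Lyz2.

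Genes of entry into mitosis were lower in BrafYAP for 9 of 10 members, with a median log2 fold change of -1.78. Of them, 8 were lower without overlap and 6 at an unadjusted limma p under 0.05. Beside the counts of this and each later role, 17.1% of all genes were lower without overlap and 10.6% at that threshold. Cdk1, the kinase that drives M phase, had 2179, 1343 and 1776 scaled reads in YAP and 761, 705 and 168 in BrafYAP. The BrafYAP values all lay below YAP, and replicate 6 was far below the other BrafYAP libraries (log2 fold change -1.95 ± 0.60 SE, limma adjusted p = 0.149, and -1.24 without that replicate). Its partner cyclin B1 (Ccnb1) had 1455, 1009 and 910 scaled reads in YAP and 401, 133 and 125 in BrafYAP. That was a log2 fold change of -2.54 ± 0.50 (SE), or 5.82-fold lower, with a limma adjusted p of 0.0889. Cdc25c, a phosphatase that activates Cdk1, stood at 200, 114 and 194 scaled reads in YAP and at 41, 25 and 26 in BrafYAP (log2 fold change -2.42 ± 0.44 SE). The groups were well separated for this phosphatase.

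The lowest value of this group belonged to Melk, a mitotic kinase. Its scaled reads were 836, 484 and 800 in YAP and 137, 110 and 57 in BrafYAP, a 7.16-fold difference (log2 fold change -2.84 ± 0.44 SE, limma adjusted p = 0.0666). Foxm1 encodes the transcription factor that drives many G2/M genes, including several of this list. It was at 181, 249 and 323 scaled reads in YAP and at 155, 133 and 16 in BrafYAP, with a log2 fold change of -1.79 ± 0.85 (SE) and a limma adjusted p of 0.285. Without BrafYAP replicate 6, its lowest library, the log2 fold change of Foxm1 was -0.76. Cdc25b, the relative of Cdc25c that starts Cdk1 activation, did not follow the other genes. It had 373, 490 and 593 scaled reads in YAP and 325, 381 and 1076 in BrafYAP, with overlapping groups and a log2 fold change of 0.10 ± 0.50 (SE). Without BrafYAP replicate 6 its log2 fold change was -0.44. Ccnb2 was lower without overlap (-1.77), the Cdk-binding proteins Cks1b (-0.69) and Cks2 (-0.90) were lower by smaller amounts, also without overlap, and cyclin A2 (Ccna2, -0.69, and -1.08 without YAP replicate 1) overlapped between the groups.

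Of the 10 genes of the spindle checkpoint and anaphase, 9 were lower in BrafYAP, 8 without overlap and 7 at an unadjusted limma p under 0.05, with a median log2 fold change of -1.86. Bub1, a checkpoint kinase at kinetochores, had 225, 136 and 135 scaled reads in YAP and 70, 16 and 15 in BrafYAP (log2 fold change -2.57 ± 0.66 SE). Ttk, the kinase Mps1 that starts checkpoint signalling, was nearly constant in YAP at 65, 73 and 69 scaled reads and had 33, 6 and 9 in BrafYAP (log2 fold change -2.37 ± 0.68 SE). In both kinases BrafYAP replicate 1 was the highest of its group and still below all YAP libraries, and without it the log2 fold changes of Bub1 and Ttk were -3.27 and -3.04. Cdca3, which takes part in removing the Cdk1 inhibitor Wee1, had 1361, 902 and 1213 scaled reads in YAP and 326, 241 and 154 in BrafYAP, and its adjusted p was the smallest of this group (log2 fold change -2.31 ± 0.37 SE, limma adjusted p = 0.0681).

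Bub1b, Ube2c (the ubiquitin-conjugating enzyme of the APC/C), Espl1 (separase, the protease that cleaves cohesin) and Mad2l1 had log2 fold changes of -2.22, -2.03, -1.69 and -1.54, all without overlap. Bub3 and securin (Pttg1) differed little, at -0.18 and -0.31. For Bub3 the groups were just separated, with 6791, 5744 and 5528 scaled reads in YAP and 5257, 5348 and 5223 in BrafYAP. Cdc20, the coactivator through which the checkpoint restrains the APC/C, varied more within YAP than between the groups. It had 95, 1346 and 519 scaled reads in YAP and 623, 339 and 362 in BrafYAP (log2 fold change 0.06 ± 0.89 SE). Without YAP replicate 1, its lowest library, the log2 fold change was -0.98, with a limma adjusted p of 0.462.

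All 7 genes of the centromere and kinetochore were lower in BrafYAP, 4 without overlap and 5 at an unadjusted limma p under 0.05, and the median log2 fold change was -1.73. Cenpe, a kinesin that links kinetochores to microtubules, had 94, 43 and 107 scaled reads in YAP and 6, 9 and 62 in BrafYAP. The overlap came from BrafYAP replicate 6, which lay above YAP replicate 2 (log2 fold change -2.24 ± 0.91 SE). The log2 fold change of Cenpe was -3.22 without BrafYAP replicate 6 (limma adjusted p = 0.0635) and -1.58 without BrafYAP replicate 1. Cenpf, a large kinetochore protein of G2 and M cells, had 98, 60 and 227 scaled reads in YAP and 24, 11 and 82 in BrafYAP (log2 fold change -1.92 ± 0.83 SE). Here too BrafYAP replicate 6 lay above YAP replicate 2. Cenpf was at -2.67 without BrafYAP replicate 6 and at -1.27 without BrafYAP replicate 2. Nuf2, a subunit of the Ndc80 complex that binds microtubules, was separated, with 332, 239 and 155 scaled reads in YAP and 69, 34 and 64 in BrafYAP (log2 fold change -2.10 ± 0.46 SE, limma adjusted p = 0.0975). The other subunits of the same complex, Ndc80, Spc24 and Spc25, had log2 fold changes of -1.58, -1.30 and -1.73, each without overlap. Cenpa, the centromeric histone, was at -1.24 and overlapped, its YAP replicate 1 having 355 scaled reads against 1614 and 1222 in the other YAP libraries (-1.90 without that replicate).

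The 4 genes of the chromosomal passenger complex, which corrects faulty attachments and later acts at the midzone, had a median log2 fold change of -1.87, and 3 were lower without overlap and at an unadjusted limma p under 0.05. Survivin (Birc5), the subunit that brings the complex to chromosomes, had 1881, 1155 and 1313 scaled reads in YAP and 404, 244 and 181 in BrafYAP. It was 5.41-fold lower (log2 fold change -2.44 ± 0.39 SE, limma adjusted p = 0.0672), and its promoter is the printed window without a CHR or CCAAT match. The kinase of the complex, Aurkb, had 416, 860 and 595 scaled reads in YAP and 323, 209 and 37 in BrafYAP (log2 fold change -2.12 ± 0.78 SE, with -1.20 without BrafYAP replicate 6 and -2.74 without BrafYAP replicate 1). Borealin (Cdca8) had 342, 884 and 727 scaled reads in YAP and 298, 229 and 110 in BrafYAP (log2 fold change -1.62 ± 0.52 SE). In both genes YAP replicate 1 and BrafYAP replicate 1 were the nearest libraries of the groups. The scaffold subunit Incenp differed less and overlapped, with 533, 1283 and 864 scaled reads in YAP and 619, 577 and 548 in BrafYAP (log2 fold change -0.53 ± 0.37 SE, and -0.86 without YAP replicate 1).

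Kinesin motors held the 2 lowest fold changes of the members, an order that changed without BrafYAP replicate 6. Of 9 kinesins 8 were lower in BrafYAP, 7 without overlap and at an unadjusted limma p under 0.05, with a median log2 fold change of -1.91. Kif4, a chromosome-bound kinesin at chrX:100625737-100727214 on the plus strand (mm10), had 160, 159 and 231 scaled reads in YAP and 41, 26 and 4 in BrafYAP. It was 10.4-fold lower (log2 fold change -3.37 ± 0.83 SE, limma adjusted p = 0.108), and without BrafYAP replicate 6, its lowest library, its log2 fold change was -2.42. Without BrafYAP replicate 1 it was -4.01. Kif20a, a kinesin of the midzone and cytokinesis, had 1742, 1259 and 1308 scaled reads in YAP and 333, 221 and 72 in BrafYAP. It was 8.09-fold lower (log2 fold change -3.02 ± 0.56 SE, limma adjusted p = 0.0830), and without BrafYAP replicate 6 its log2 fold change was -2.38. In that fit Cenpe (-3.22), Cenpf (-2.67), Top2a (-2.64), Nusap1 (-2.48), Melk (-2.47) and Prc1 (-2.45) were all below Kif4 and Kif20a. Kif2c, which takes apart microtubule ends at centromeres, had 646, 629 and 390 scaled reads in YAP and 160, 83 and 55 in BrafYAP (log2 fold change -2.57 ± 0.47 SE). These 3 kinesins were clearly separated between the genotypes.

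Kif15, Kifc1, Kif11 (Eg5, the motor that pushes spindle poles apart) and Kif23 had log2 fold changes of -2.38, -1.91, -1.65 and -1.23 without overlap. Kif20b overlapped, at -0.86 (-1.68 without BrafYAP replicate 6). Kif18a, which dampens chromosome movements, was high in BrafYAP replicate 6 alone. It had 17, 40 and 30 scaled reads in YAP and 14, 9 and 266 in BrafYAP (log2 fold change 0.25 ± 1.23 SE), and without BrafYAP replicate 6 its log2 fold change was -1.24, with a limma adjusted p of 0.303. Kif18a overlaps the gene Mettl15 in the annotation, and reads of the pair can be shared. Such overlaps exist for 35 members, among them kinesins that were lower, such as Kif4 (with Pdzd11) and Kif20a (with Cdc23).

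Spindle kinases and microtubule-binding proteins held the smallest adjusted p-values of all members. All 9 were lower in BrafYAP, 8 of them without overlap and at an unadjusted limma p under 0.05, with a median log2 fold change of -2.09. Tpx2, which activates Aurora A on the spindle (chr2:152847964-152895321, plus strand, mm10), had 1634, 1246 and 1504 scaled reads in YAP and 336, 240 and 167 in BrafYAP. Its log2 fold change was -2.61 ± 0.34 (SE), or 6.08-fold lower, with a limma adjusted p of 0.0544. Prc1, which bundles the antiparallel microtubules of the midzone (chr7:80294450-80316259, plus strand, mm10), had 1202, 922 and 815 scaled reads in YAP and 207, 150 and 146 in BrafYAP. Its log2 fold change was -2.54 ± 0.31 (SE), or 5.80-fold lower, and its adjusted p was the same as that of Tpx2. In both genes the lowest YAP library was more than 3 times the highest BrafYAP library.

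The polo kinase Plk1, which acts from spindle assembly to cytokinesis, had 708, 1150 and 1056 scaled reads in YAP and 327, 157 and 103 in BrafYAP (log2 fold change -2.44 ± 0.47 SE, limma adjusted p = 0.0887). Aurka, the Aurora A kinase, Hmmr, Nusap1 and the tubulin-binding protein stathmin (Stmn1) had log2 fold changes of -2.21, -2.09, -2.05 and -1.66 without overlap, and Aurka was at -1.54 without BrafYAP replicate 6. Ckap2 was lower by less (-0.88), also without overlap, and the centrosomal kinase Nek2 overlapped (-0.56, and -1.09 without YAP replicate 1).

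All 4 genes of cytokinesis were lower in BrafYAP, 3 of them without overlap and at an unadjusted limma p under 0.05, with a median log2 fold change of -1.53. Anillin (Anln), the scaffold of the contractile ring, had 729, 913 and 1038 scaled reads in YAP and 291, 245 and 162 in BrafYAP (log2 fold change -1.96 ± 0.34 SE, limma adjusted p = 0.0788). Cep55, which recruits the machinery of abscission, had 200, 296 and 368 scaled reads in YAP and a narrow 72, 85 and 80 in BrafYAP (log2 fold change -1.82 ± 0.36 SE). Ect2, the exchange factor that activates RhoA at the equator, had 513, 427 and 354 scaled reads in YAP and 219, 121 and 215 in BrafYAP (log2 fold change -1.25 ± 0.37 SE). The groups were separated for these 3 genes. Racgap1, which activates Ect2, was not separated. Its YAP values spread from 343 to 1815 scaled reads around BrafYAP values of 380 to 830 (log2 fold change -0.64 ± 0.63 SE, and -1.29 without YAP replicate 1).

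Among the 6 genes of chromosome structure and proliferation, 5 were lower in BrafYAP without overlap and at an unadjusted limma p under 0.05, with a median log2 fold change of -1.47. Topoisomerase II alpha (Top2a), which untangles sister chromatids, had 1179, 819 and 818 scaled reads in YAP and 188, 115 and 304 in BrafYAP. It was 4.91-fold lower (log2 fold change -2.30 ± 0.42 SE, limma adjusted p = 0.0817). Mki67, the gene of the proliferation marker Ki-67, had 122, 78 and 280 scaled reads in YAP and 31, 37 and 71 in BrafYAP. Its groups were only just separated, with 71 in BrafYAP replicate 6 against 78 in YAP replicate 2 (log2 fold change -1.66 ± 0.59 SE, limma adjusted p = 0.188). Ncaph, a subunit of the condensin I complex, had 779, 496 and 435 scaled reads in YAP and 229, 194 and 132 in BrafYAP (log2 fold change -1.61 ± 0.37 SE), and Ncapg of the same complex was at -1.32.

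The core ATPases of condensin, Smc2 and Smc4, differed from each other in BrafYAP replicate 6. Smc2 was at -1.07 without overlap. Smc4 had 94, 148 and 130 scaled reads in YAP and 119, 80 and 647 in BrafYAP, with a log2 fold change of 0.59 ± 0.76 (SE), and without BrafYAP replicate 6 the log2 fold change was -0.32. Smc4 overlaps the microRNA genes Mir15b and Mir16-2 in the annotation.

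**Figure D3:**
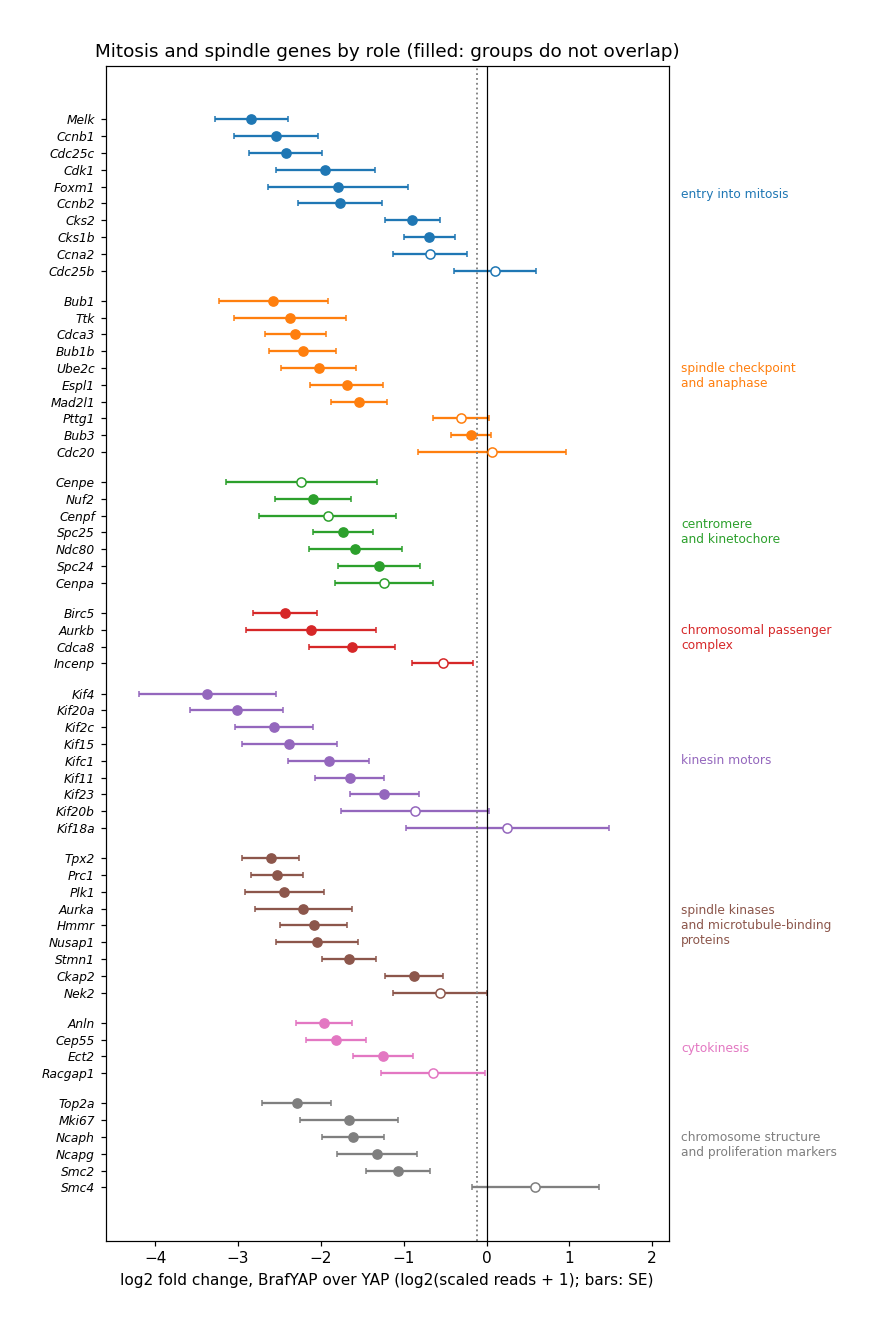
Log2 fold change (BrafYAP over YAP, on log2(scaled reads + 1)) of each of the 59 members by role, with SE bars from limma, filled circles where the groups do not overlap and a dotted line at the median of all genes tested (-0.12). The role medians lie between -2.09 and -1.47, and 4 members lie to the right of 0.

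The members did not vary alike within each group. YAP replicate 1 was more than 2-fold below both other YAP libraries for 7 members (Ccnb2, Cdc20, Nek2, Cdca8, Cenpa, Spc24 and Racgap1), 11.9% of members beside 15.5% of all genes. BrafYAP replicate 6 was that far below both other BrafYAP libraries for 10 (Cdk1, Foxm1, Aurka, Aurkb, Cdca8, Kif20a, Kif23, Kif4, Kif15 and Espl1), 16.9% of members beside 16.2% of all genes. It was that far above them for 6 (Cdc25b, Cenpe, Cenpf, Kif20b, Kif18a and Smc4), 10.2% of members beside 13.2% of all genes, so these shares were near those of all genes. Without YAP replicate 1, 58 members were lower in BrafYAP, 51 without overlap and 43 at an unadjusted limma p under 0.05 (beside 7.16% of all genes). Without BrafYAP replicate 6, 58 were lower, 50 without overlap and 44 at the unadjusted threshold (beside 11.5% of all genes). In that fit Kif20a, Melk, Prc1, Top2a and Tpx2 (5 members) passed the limma adjusted threshold of 0.05, beside 142 of 16587 genes (0.856%). With a library left out, groups overlap less readily for any gene, and the share of all genes without overlap was not computed for these fits.

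**Figure D4:**
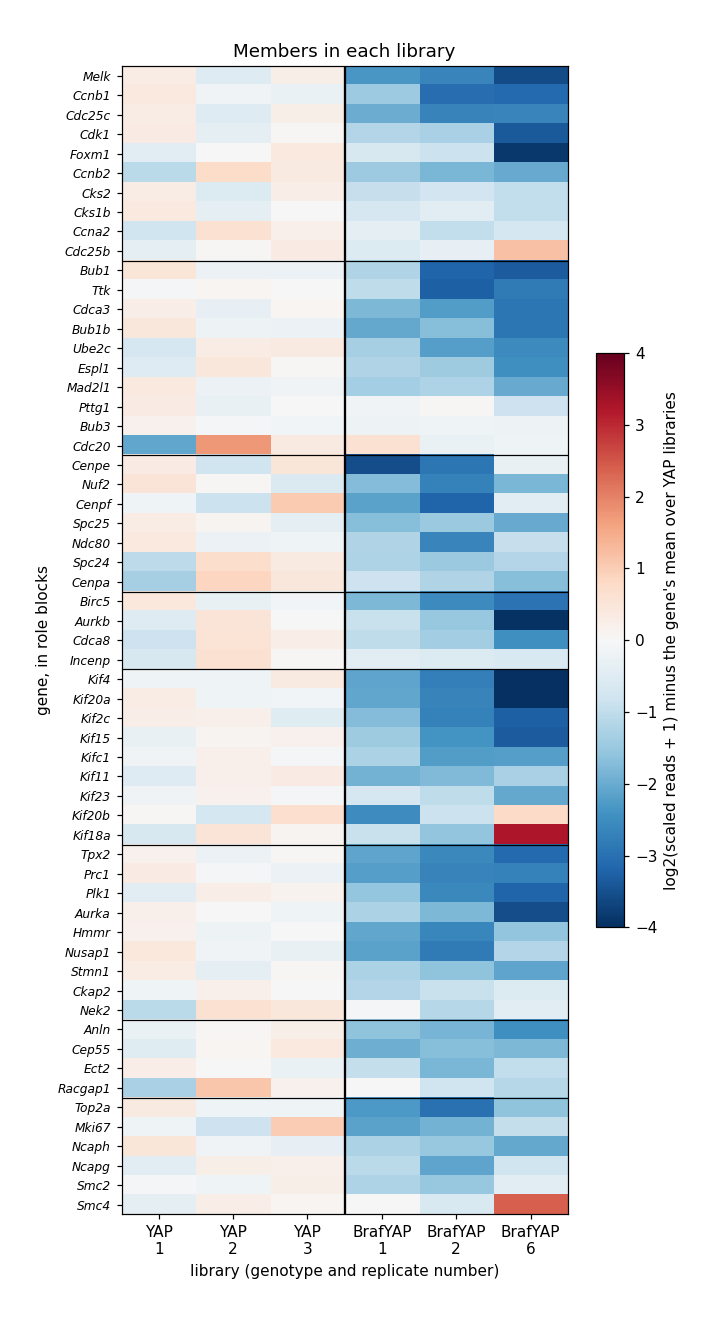
Difference of each member (rows, in role blocks) from its mean over the YAP libraries, on log2(scaled reads + 1), in each of the 6 libraries (columns). Blue cells fill most of the 3 BrafYAP columns, and the red cells of BrafYAP replicate 6 include Kif18a, Smc4 and Cdc25b.

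As a share of all estimated reads, the members took 0.138 to 0.163% in YAP and 0.0586 to 0.0722% in BrafYAP, so these RNAs were scarce in both. Per exonic length, the highest YAP means among members were those of Stmn1 (182 ± 43.3 TPM, SD, n = 3), Cks1b (163 ± 43.8) and Cks2 (102 ± 32.9). Their BrafYAP means were 60.02 ± 16.9, 103 ± 21.2 and 54.6 ± 5.45 TPM. Plk1 went from 38.3 ± 9.19 to 7.99 ± 4.74 TPM by these means, and Kif18a was the member with the lowest YAP mean (0.257 ± 0.096 TPM). The fewest estimated reads of any member in a library were 17 to 29 in YAP and 4 to 8 in BrafYAP, and at such counts the counting error is large.

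The values as deposited, which are divided by the whole genomic span of each gene, covered fewer members. Only 20 members had a mean of at least 1, and the other 39 were below it. That mean was over all 6 libraries, so a member can pass through its YAP values alone. Aurka, just above the minimum, averaged 710 scaled reads in YAP and 183 in BrafYAP. Such members stay in the counts that follow. Of the 20, 0 passed the limma adjusted threshold, beside 0.246% of 7319 genes. At an unadjusted limma p under 0.05, 14 were lower in BrafYAP, beside 9.17% of genes, and 0 were higher, beside 10.7%. Groups were separated with BrafYAP lower for 16, beside 16.4% of genes, and the median log2 fold change was -0.96. Because 1 was added to these values, fold changes of members near the minimum are pulled toward 0. This median is therefore not on the scale of the -1.77 of scaled reads. Aurka (deposited mean 1.03) was at -0.91 here and -2.21 on scaled reads, and Stmn1 (deposited mean 16.0) at -1.54 and -1.66.

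Other genes of the mitotic machinery, taken from lists written by function, were lower in part, and the difference from the members was not tested. Of 131 such genes 130 were tested, 95 were lower in BrafYAP, 43 of them at an unadjusted limma p under 0.05 (beside 10.6% of all genes), and 5 were higher at that threshold (beside 9.69%). Other kinetochore and centromere proteins were lower for 33 of 35 genes, 19 at the unadjusted threshold, with a median log2 fold change of -1.04. Among them the centromere subunit Cenpi had 267, 197 and 181 scaled reads in YAP and 52, 45 and 15 in BrafYAP (log2 fold change -2.65 ± 0.54 SE), and Knstrn and Ska3, which act at attached kinetochores, were at -2.51 and -1.98. Other spindle, centrosome and cytokinesis proteins were lower for 30 of 36, 16 at the unadjusted threshold, with a median of -0.78. The augmin subunit Haus8 was the most evenly separated of those named, with 1249, 1415 and 998 scaled reads in YAP and 395, 305 and 268 in BrafYAP (log2 fold change -1.92 ± 0.30 SE, limma adjusted p = 0.0670), and Kif18b and Depdc1b were at -2.30 and -2.11. The groups did not overlap for any of the genes named here. Over the full lists, 22 of the 35 and 17 of the 36 genes were lower without overlap, beside 17.1% of all genes.

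Other regulators of mitotic entry were tested for 11 of 12 genes, of which 8 were lower and 4 were lower at the unadjusted threshold, with a median of -0.82. The Cdk1 phosphatase Cdkn3 was at -2.75, Cdca2 at -1.48 and cyclin F (Ccnf) at -1.27. Of 4 other condensin subunits 3 were lower, with Ncapd2 of condensin I at -1.90 (1847, 1114 and 1088 scaled reads in YAP and 456, 341 and 273 in BrafYAP) and Ncapd3 of condensin II at -1.16. Of the condensin subunits, Smc4 alone among the members had a fitted level above that of YAP.

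The APC/C, cohesin and DREAM lists had medians near that of all genes. The APC/C subunits and regulators had a median log2 fold change of -0.13 over 17 genes, with 9 lower, 0 of them at the unadjusted threshold in limma, and 2 higher at it. These were Fzr1 (Cdh1, the coactivator of late mitosis and G1), with 178, 979 and 376 scaled reads in YAP and 1713, 2031 and 1595 in BrafYAP (log2 fold change 2.13 ± 0.59 SE, limma adjusted p = 0.127), and the subunit Cdc16, at 1.69. YAP replicate 1 was the lowest library for both. The groups were separated for Fzr1 and overlapped for Cdc16, with 1347 scaled reads in YAP replicate 2 and 1322 in BrafYAP replicate 1. Cohesin and its regulators had a median of -0.13 over 15 genes. Sororin (Cdca5, -1.58) and shugoshin (Sgo1, -1.83), which guard cohesion in dividing cells, were lower at the unadjusted threshold, and the cohesin loader subunit Mau2 was higher (0.82).

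The DREAM and MuvB complex, which represses G2/M promoters in resting cells and in its B-Myb form activates them, had a median of 0.12 over 12 genes, with 4 lower and 0 of those at the unadjusted limma threshold. Its pocket protein Rbl2 (p130), a part of the repressive form, had 190, 745 and 264 scaled reads in YAP and 672, 996 and 936 in BrafYAP (log2 fold change 1.35 ± 0.53 SE, limma adjusted p = 0.216), and the groups overlapped. The E2F partner Tfdp2 had 353, 371 and 265 scaled reads in YAP and 691, 685 and 684 in BrafYAP (log2 fold change 1.07 ± 0.28 SE, limma adjusted p = 0.117), with separated groups.

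Genes of S phase were lower as well, by less at the median. Of 44 genes of DNA replication and its licensing, 38 were lower in BrafYAP, beside 55.6% of all genes. At an unadjusted limma p under 0.05, 25 were lower (beside 10.6% of all genes) and 1 was higher (beside 9.69%). Without overlap, 28 were lower (beside 17.1%). The median log2 fold change was -0.90, beside -1.77 for the mitosis genes. The difference between these medians was not tested. Cdc6, which loads the replicative helicase, had 454, 330 and 384 scaled reads in YAP and 59, 32 and 13 in BrafYAP, 12.8-fold lower (log2 fold change -3.67 ± 0.56 SE, limma adjusted p = 0.0666), a lower fold change than that of any of the 59 members. Mcm10, an initiation factor, was at -2.88 (limma adjusted p = 0.0589) and thymidine kinase (Tk1) at -1.94.

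**Figure D5:**
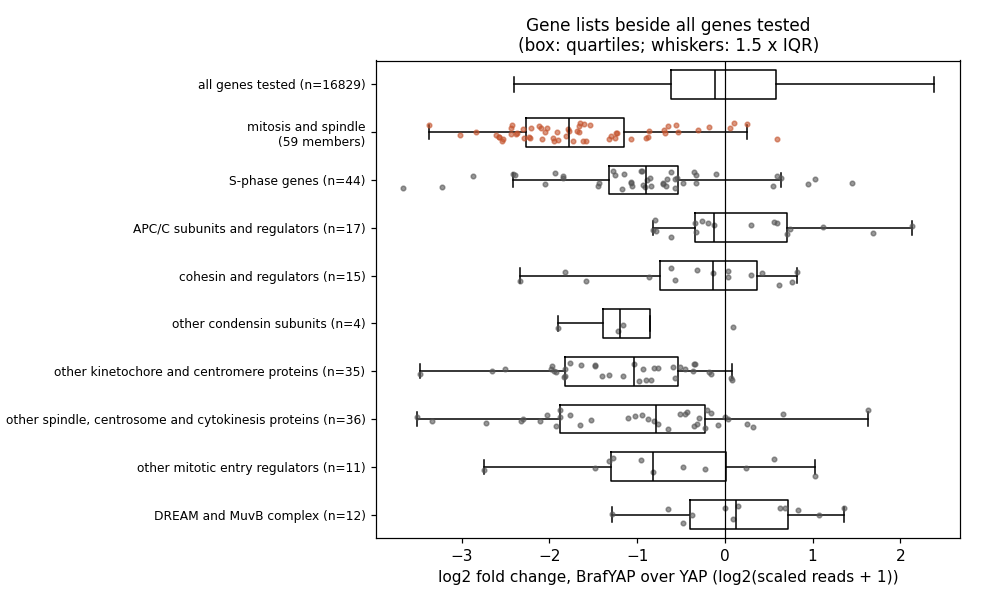
Log2 fold change (BrafYAP over YAP, on log2(scaled reads + 1)) of the genes in each list, as boxes of quartiles with whiskers to 1.5 times the interquartile range and points for single genes (no points for all genes tested). The members have a median of -1.77, the S-phase genes -0.90 and the DREAM and MuvB complex 0.12.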

How the data were processed

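Complementary DNA was amplified for 12 cycles (SMART-Seq v4), library PCR took 8 cycles, and 50-base paired ends were read. Alignment by the authors was to mm10 (STAR 2.6.1d, in the submitters' processing notes), and the TPM that the authors deposited came from Partek's E/M quantification with an offset of 0.0001. Column totals were 181217.6. Low values were whole multiples (within 0.05) of 1 step per library for 76.2 to 79.2% of values when multiplied by genomic span (introns included), and for 27.9 to 31.2% with exonic length (GENCODE M21). Scaled reads are therefore the deposited TPM less the offset, times span, with the authors' scaling between libraries kept. TPM by exonic length were recomputed from the same reads. Symbols of 34640 genes lay at one locus. Duplicates carry no molecular identifier. No strand was stated for the counting, and 35 members overlap another annotated gene, with which they can share reads.

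The genotypes were compared with limma 3.58.1 (R 4.3.3; lmFit, eBayes with trend, two-sided). Its input was log2(scaled reads + 1) where a gene averaged 10 or more scaled reads, and log2(deposited TPM + 1) where it averaged 1 or more. Adjustment was by Benjamini-Hochberg over all genes tested, at 0.05. The fit was tested on simulated data. The labels name no batch, so none was modelled. Members, lists and tests were chosen with earlier results of these data known. The 30 genes given in every library are Mki67, Top2a, Cdk1, Ccnb1, Foxm1, the 3 with the largest absolute fold change in each role, and those opposite in sign to the median of the members. From other lists, up to 3 genes by smallest p under 0.05 are named. Further members with values in every library (Bub3, Incenp) and values of Racgap1 and Cenpa were chosen after their values were seen. Alternatives tried are in the closing section. An item of the genotype and a marker are not reported here.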

Additional observations from a re-analysis of the deposited data

How the results depend on the processing

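Most members were lower in BrafYAP under every alternative run, while Cdc20, Cdc25b, Kif18a and Smc4 changed sign under those given below. On scaled reads 55 to 59 were lower in BrafYAP (49 of 52 tested with the exonic length and 45 of 48 with a mean of at least 100 reads). Minimums were means over all libraries fitted, which members can pass through YAP values alone. Kif4, kept at 100 reads, averaged 183 in YAP and 23.7 in BrafYAP. At an unadjusted limma p under 0.05, 34 to 48 were lower, beside 7.16 to 14.9% of all genes. The number past the adjusted threshold, 0 in the report, was 2 (Prc1 and Tpx2) with a pseudocount of 10, with scaling to library totals, with quantile normalization and with the exonic length (beside 0.267 to 0.427% of all genes), 37 with array weights (11.2%), and 0 to 5 with each library left out (5 without BrafYAP replicate 6, beside 0.856%). On deposited values, also 0 in the report, it was 4 with quantile normalization (beside 1.08% of genes), 15 with array weights (19%) and 0 to 5 with each library left out (5 without YAP replicate 2, beside 6.39%). The median log2 fold change of the members was -1.31 with the exonic length, over 52 members. That setting took log2(TPM + 1), and adding 1 pulls fold changes of members with few TPM toward 0. Bub1, at mean TPM of 3.28 in YAP and 0.694 in BrafYAP, was at -1.38 there and at -2.57 on scaled reads. The part of the added 1 in the smaller median was not tested. Median-ratio scaling shifted the median of all genes from -0.12 to 0.01 and left 55 members lower.

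With a replicate block on the numbers that both groups share (1 and 2), 0 members passed the adjusted threshold. At the unadjusted one 34 were lower, beside 8.38% of all genes, and the median was -1.56. The labels do not say that equal numbers mark paired samples. Under this block Cdc25b, Kif18a and Smc4, higher in BrafYAP in the report but far from the threshold, were at -0.28, -1.18 and -0.27.

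With array weights Cdc20, Cdc25b, Kif18a and Smc4 were at -0.081, -0.51, -1.05 and -0.20. With each library left out in turn, Cdc20 ranged from -0.98 to 0.93 (below 0 without YAP replicate 1 or BrafYAP replicate 1), Cdc25b from -0.44 to 0.43 and Kif18a from -1.24 to 1.16 (both below 0 without YAP replicate 1 or BrafYAP replicate 6), and Smc4 from -0.32 to 1.19 (below 0 without BrafYAP replicate 6). Depth limits the members with few reads in BrafYAP, such as Kif4 and Kif18a. With 3 libraries a group, outlying libraries could not be tested.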
